A study of Mus musculus and Homo sapiens with 12 samples.

Results

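A set of 9 genes that maintain blood stem and progenitor cells was followed after loss of the RNA helicase DDX21. They are the HOXA cluster genes HOXA5, HOXA7, HOXA9 and HOXA10, the homeobox gene MEIS1, the zinc finger gene MECOM (also called EVI1), the bZIP gene HLF, and the fetal-type regulators HMGA2 and LIN28B. Members were chosen by name and matched by gene symbol, without regard to case. The 9 genes and the gene lists used below were chosen with earlier results of these data known. Shares over all genes, given beside their counts, are therefore context and not a test of the set. All 9 were found among 55487 mouse genes, and 4 (MEIS1, MECOM, HMGA2 and LIN28B) among 78932 human genes. HOXA5, HOXA7, HOXA9, HOXA10 and HLF were not analysed here in human cells, since the deposited human table did not pair an identifier with these symbols. Genes left out of that table had at most 102 counts over the 6 human libraries, and 3743 genes in it carried no symbol. Low counts and a missing name therefore cannot be told apart for these genes.

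Polyadenylated RNA was sequenced in 12 libraries, 3 in each of 4 groups. In the mouse, live cells without lineage markers and with Kit (LK cells, a mixed progenitor gate) were sorted from fetal liver at E13.5. Wild-type (WT) embryos were Ddx21f/f, and conditional knockout (cKO) embryos were Vav-Cre; Ddx21f/f, so both groups carried floxed alleles and only cKO carried a Cre driven by Vav, which acts in blood and some endothelial cells. In the human experiment, cells differentiated in culture from the embryonic stem cell line H1 were transduced with lentivirus encoding mCherry, which carried the control shRNA (shNC group) or the shRNA to DDX21 (shDDX21 group). They were sorted 2 days later as live CD34+, CD45+, CD43+ and shRNA+ cells, and all come from 1 cell line. The labels do not say whether replicates came from separate embryos or cultures, so p-values measure only the spread between these libraries.

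HOXA proteins are homeodomain transcription factors that bind DNA with PBX and MEIS partners, and HOXA9 with MEIS1 is a well-known driver of progenitor self-renewal and of leukaemia. MECOM and HLF are transcription factors characteristic of blood stem cells, and their RNA falls as these cells mature. LIN28B blocks maturation of let-7 microRNAs in fetal cells, which relieves let-7 repression of targets such as HMGA2, a chromatin protein that supports fetal stem cell self-renewal.

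The let-7 axis can be read in the sequences of the genes themselves. Mature let-7 was not measured in these poly(A) libraries, and the sequences are shown because they link LIN28B to HMGA2. RefSeq (GRCm38.p6) lists 11 mouse microRNAs that share bases 2 to 8, the seed, in capitals here for 3 of them.
mmu-let-7a-5p: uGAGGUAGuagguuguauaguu
mmu-let-7g-5p: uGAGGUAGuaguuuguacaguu
mmu-miR-98-5p: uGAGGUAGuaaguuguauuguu

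The seed complement, CTACCTC, was searched in the longest annotated 3′ untranslated region (UTR) of each mouse gene (GENCODE M21, sense strand). Hmga2 held 4 matches in 3014 bases and Lin28b held 4 in 4445 bases. Each is shown with its flanks, 5′ to 3′ on the transcript, with the match in capitals and the GRCm38 position of the bases printed (all on the minus strand).
Hmga2 chr10:120364224-120364245: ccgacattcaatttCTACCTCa
Hmga2 chr10:120362987-120363008: cccactcctcaataCTACCTCt
Hmga2 chr10:120362549-120362570: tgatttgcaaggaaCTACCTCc
Hmga2 chr10:120361691-120361712: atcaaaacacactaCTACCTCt
Lin28b chr10:45381022-45381043: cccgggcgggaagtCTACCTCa
Lin28b chr10:45378648-45378669: atacttgttagtaaCTACCTCt
Lin28b chr10:45378476-45378497: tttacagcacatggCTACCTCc
Lin28b chr10:45377060-45377081: aatgatggcaccgaCTACCTCt

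Hlf held 1 match in a 3′ UTR of 4223 bases (chr11:90337992-90338013, ggtttgtagaaaacCTACCTCa), and the other 6 genes held 0. Over 20971 mouse genes with a 3′ UTR, 8.96% held at least 1 match. Among genes whose 3′ UTR was within 20% of the same length, 15.6% held a match for Hmga2, 23.9% for Lin28b and 23% for Hlf. At least 4 matches were present in 0.135% of the genes of like length for Hmga2 and in 0.238% for Lin28b. A match is a description of the letters and does not show that a site is used.

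Upstream sequences are printed for 2 of the genes that rose in cKO cells, Hoxa9 and Hlf, and for Lin28b, which did not pass the test. Each is the 250 bases before the RefSeq start (GRCm38.p6, minus strand), with motif matches in capitals. The Hoxa9 and Lin28b windows lie within longer annotated models of the same genes, outside annotated exons.
Hoxa9 chr6:52227371-52227620: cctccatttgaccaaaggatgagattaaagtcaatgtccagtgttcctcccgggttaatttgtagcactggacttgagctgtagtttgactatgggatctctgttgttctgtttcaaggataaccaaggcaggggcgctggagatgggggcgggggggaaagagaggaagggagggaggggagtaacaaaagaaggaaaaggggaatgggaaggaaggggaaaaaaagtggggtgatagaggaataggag
Hlf chr11:90390918-90391167: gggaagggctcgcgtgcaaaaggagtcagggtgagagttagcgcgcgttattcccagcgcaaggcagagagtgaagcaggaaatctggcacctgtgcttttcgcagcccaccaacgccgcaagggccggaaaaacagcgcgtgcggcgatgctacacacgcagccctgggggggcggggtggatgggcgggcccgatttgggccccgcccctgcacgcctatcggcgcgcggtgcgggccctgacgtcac
Lin28b chr10:45470202-45470451: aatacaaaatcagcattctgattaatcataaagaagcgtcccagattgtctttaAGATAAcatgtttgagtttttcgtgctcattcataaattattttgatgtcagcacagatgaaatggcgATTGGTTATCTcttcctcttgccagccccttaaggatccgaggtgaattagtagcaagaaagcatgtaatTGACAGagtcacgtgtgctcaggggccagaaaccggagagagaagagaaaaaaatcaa

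Motifs were searched on both strands: the TATA box as TATAAA, the CCAAT box, a MEIS core as TGACAG, a HOX-PBX site as TGATTTAT, a GATA factor site as AGATAA, a RUNX site as TGTGGT and a PAR bZIP site (the HLF family) as TTACGTAA. Among 32851 mouse windows of the same length, the shares with a match were 12.4%, 33.8%, 15.9%, 0.837%, 9.99%, 14% and 0.113% in that order. The Hoxa9 and Hlf windows held none of these letters. The Lin28b window held 1 CCAAT box, 1 MEIS core and 2 GATA matches, with the CCAAT box directly beside a GATA match. The Meis1 window held 1 CCAAT box and 1 RUNX match. GC content ran from 39.2% for Lin28b to 67.2% for Hlf, against a median of 52.4% over all windows.

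The targeted gene and the gates were checked first. Ddx21 stood at 19.7% of its WT level in cKO cells, and DDX21 at 14.5% of its shNC level. Libraries held 21116079 to 23898130 counts in the mouse and 15289510 to 19798608 in the human experiment. Kit RNA was 362 ± 5.02 CPM in WT and 317 ± 5.17 in cKO (SD, n = 3 each), and human CD34 was 249 ± 3.06 in shNC and 297 ± 1.87 in shDDX21 (SD, n = 3 each). CPM is the read count scaled to library size, here after edgeR's TMM normalization.

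Of the 9 genes, 7 rose in cKO LK cells and none fell (edgeR quasi-likelihood test, Benjamini-Hochberg adjusted p under 0.05 over all genes tested). Over all 14918 mouse genes tested, 36.5% were called, 20.7% higher and 15.8% lower. All 9 genes passed the filter on low counts, but Hoxa5 and Hoxa10 did so only through the cKO libraries (1 of 3 WT libraries reached the cutoff of 0.449 CPM), so neither would have been tested on WT levels. With at least 10 counts required in every library these 2 were not tested, and 6 of the remaining 7 rose. The median log2 fold change was 1.23 over the 9 and 1.03 over those 7, beside 0.001 over all genes tested. Values were positive for all 9, from 0.03 for Lin28b to 2.77 for Mecom. In bulk libraries, more cells of a type and more RNA per cell cannot be told apart.

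**Figure D1:**
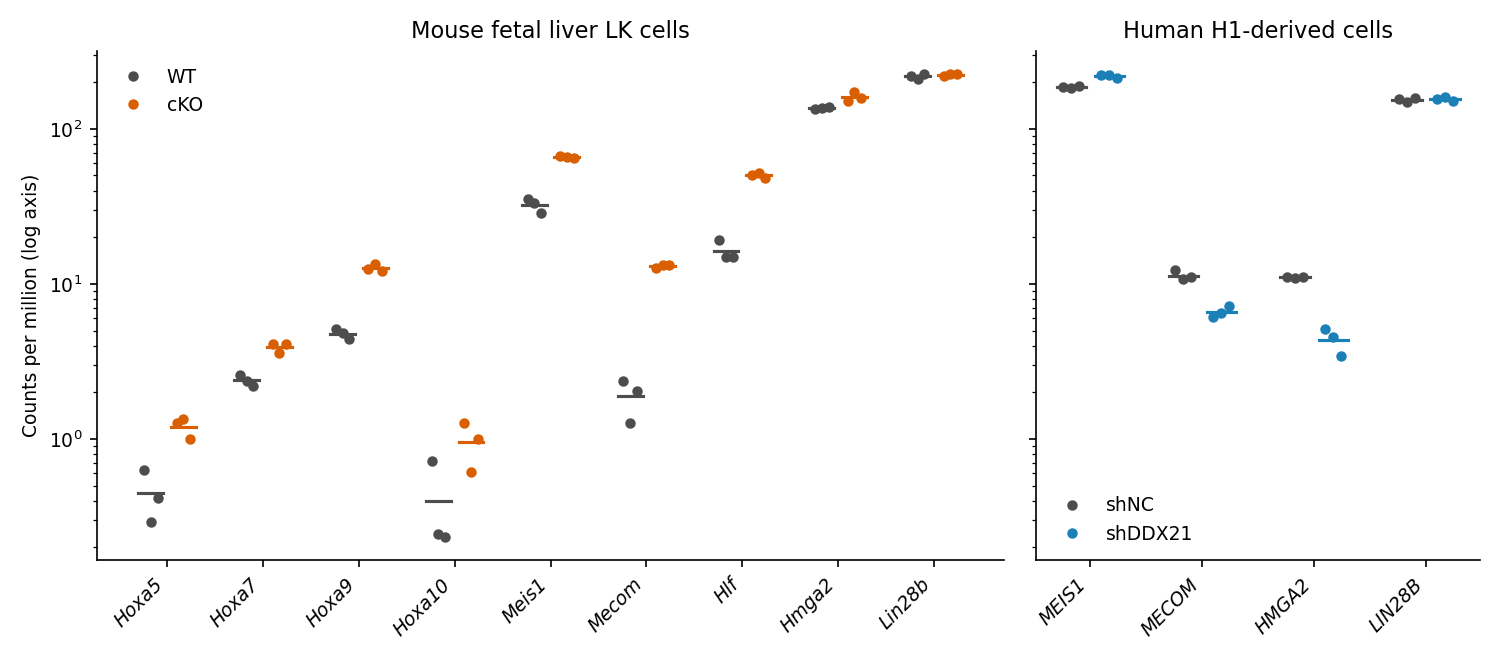
Level of each gene in every library, in CPM on a log axis, for mouse LK cells (left: WT in grey, cKO in orange) and human H1-derived cells (right: shNC in grey, shDDX21 in blue). Points are libraries and short lines are means of 3. The Mecom points are separated most, at 1.27 to 2.38 in WT and 12.6 to 13.3 in cKO, whereas those of Lin28b overlap.

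Hoxa9 had the highest CPM of the Hoxa genes, although per kilobase of exon its WT libraries overlapped those of Hoxa7. Hoxa9 lies on chromosome 6 (GRCm38, 52223100 to 52231089, minus strand; ENSMUSG00000038227), between Hoxa7 and Hoxa10. Its level was 5.11, 4.82 and 4.41 CPM in the WT libraries and 12.5, 13.4 and 12.1 CPM in the cKO libraries. No cKO library came near a WT library, and the rise was 2.65-fold (log2 fold change 1.40, SE 0.0994, adjusted p = 5.55e-05).

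Hoxa7, its neighbour in the cluster (52214491 to 52221854), rose less. Levels were 2.6, 2.38 and 2.18 CPM in WT and 4.09, 3.57 and 4.08 CPM in cKO, without overlap. The fold was 1.63 (log2 fold change 0.71, SE 0.133, adjusted p = 0.00555). Exons of the antisense gene Hoxaas3 overlap 20.4% of the Hoxa7 exon bases. Hoxaas3 had 31 counts over the 6 libraries, and whether reads were counted by strand is not given in the sources used here.

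Hoxa5 and Hoxa10 were near the lower limit of these libraries. For Hoxa5 (52201754 to 52204587), the WT libraries held 14, 6 and 9 counts and the cKO libraries 29, 33 and 22. Its groups did not overlap (log2 fold change 1.41, SE 0.295, adjusted p = 0.00892). For Hoxa10 (52231197 to 52240854) the counts were 16, 5 and 5 against 29, 15 and 22. Here 1 WT library lay above 1 cKO library, and the difference did not pass the test (log2 fold change 1.23, SE 0.48, adjusted p = 0.085). That outcome rested on single libraries: without WT replicate 1 the adjusted p was 0.0264, and without cKO replicate 2 it was 0.046.

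Non-overlapping, higher cKO groups were seen in 7 of the 9 genes, against 27.6% of all genes tested, and non-overlapping, lower groups in 0, against 21.4%. Hoxa10 and Lin28b were the exceptions. Hoxa5, counted among the 7, and Hoxa10 had passed the filter only through the cKO libraries.

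Other Hoxa genes were mostly too low to test. Hoxa3 had counts of 1, 4 and 0 in the WT libraries, against 15, 14 and 12 in the cKO libraries, with an adjusted p of 0.0108. Hoxa6 had 8, 4 and 5 counts against 12, 18 and 14 (log2 fold change 1.24, SE 0.326, adjusted p = 0.0223). Both entered the test only through the cKO libraries, since no WT library reached the cutoff, and with at least 10 counts required in every library neither was tested. Hoxa6 lost its call by DESeq2 (adjusted p = 0.142) and without any one of 4 libraries (WT replicates 2 and 3, cKO replicates 2 and 3; adjusted p from 0.065 to 0.0808). Hoxa2 and Hoxa4 stood below 0.3 CPM on average in both groups and were not tested, and Hoxa11 and Hoxa13 were at 0 in all 6 libraries. None of the 28 Hoxb, Hoxc and Hoxd genes, and none of 5 noncoding genes of the Hoxa cluster, reached the filter.

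**Figure D2:**
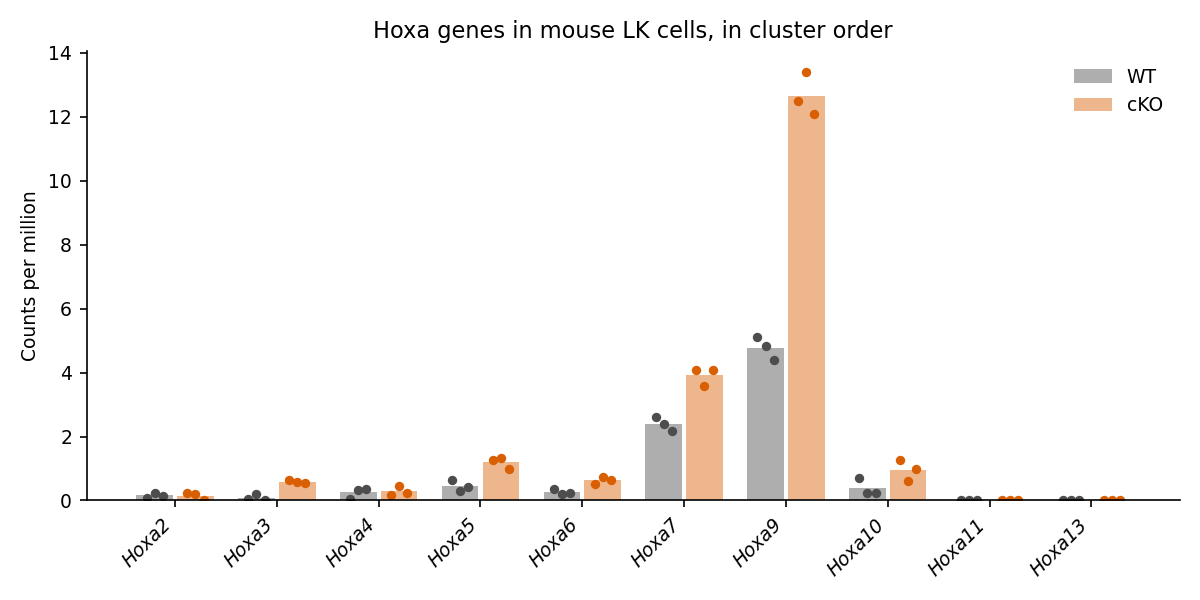
Level (CPM) of Hoxa genes in mouse LK cells, in their order along the cluster. Bars are means of 3 libraries and points are libraries (WT in grey, cKO in orange). Hoxa9 and Hoxa7 stand out with 12.7 and 3.91 CPM in cKO, and the end of the cluster beyond Hoxa10 is empty.

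Meis1, which encodes a DNA-binding partner of HOX and PBX proteins, about doubled. Its levels were 35.4, 33.1 and 28.7 CPM in WT and 66.8, 65.6 and 64.8 CPM in cKO. The cKO libraries were close to each other and far above every WT library (2.03-fold; log2 fold change 1.02, SE 0.08, adjusted p = 9.17e-05). Meis1 spans 18879817 to 19018985 on chromosome 11 (minus strand), and 9.77% of its exon bases are shared with Gm37818 on the same strand, which had 366 counts in all.

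Of 6 tested TALE homeodomain genes, the family of MEIS partners, 1 rose and 0 fell, with a median log2 fold change of -0.02 (0.04 with total-count scaling). In percent, 16.7% rose and 0% fell, beside 20.7% and 15.8% of all mouse genes tested. Pbx2 stood at -0.16 (SE 0.115, adjusted p = 0.317) and Pknox1 at -0.07 (SE 0.0547, adjusted p = 0.326).

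Mecom showed the largest change of the 9 genes. Its counts were 53, 26 and 44 in the WT libraries, against 289, 326 and 294 in the cKO libraries, or 2.38, 1.27 and 2.04 CPM against 12.6, 13.2 and 13.3 CPM. The lowest cKO library was several times the highest WT library. The rise was 6.83-fold (log2 fold change 2.77, SE 0.189, adjusted p = 4.62e-05), which placed Mecom at the 98.6th percentile of all log2 fold changes. Mecom lies on chromosome 3 (29951296 to 30548008, minus strand). The counts are for the whole gene and do not separate its long (MDS1-EVI1) and short (EVI1) products.

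Hlf followed, with 19.1, 15 and 14.8 CPM in WT and 50.7, 51.7 and 48.4 CPM in cKO. Again the groups were well apart (3.08-fold; log2 fold change 1.62, SE 0.106, adjusted p = 3.82e-05). Hlf lies on chromosome 11 (90336536 to 90390895, minus strand). Among 5 tested relatives of MECOM and HLF, 3 rose and 1 fell, with a median log2 fold change of 0.43. Among those that rose were Tef, a PAR bZIP factor like HLF (0.76, SE 0.0503, adjusted p = 4.12e-05), and Prdm16, the closest relative of MECOM (0.43, SE 0.116, adjusted p = 0.0251). Prdm16 lost its call without WT replicate 2 (adjusted p = 0.0865), WT replicate 3 (0.058) or cKO replicate 3 (0.0609). Nfil3, a bZIP repressor, fell by 0.46 (adjusted p = 0.0447), and this call was lost with total-count scaling, by DESeq2 and without any one of 5 libraries (the 3 WT libraries, cKO replicates 2 and 3).

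Hmga2 rose by a small amount from a high level. Its levels were 135, 137 and 138 CPM in WT and 151, 174 and 158 CPM in cKO. The groups did not overlap, and cKO replicate 2 was the highest. The opposite-strand gene 1700006J14Rik, with 3763 counts in all, shares 2.07% of the Hmga2 exon bases. The fold was 1.18 (log2 fold change 0.24, SE 0.0549, adjusted p = 0.0136), and the call was lost without WT replicate 1 (adjusted p = 0.0547) or WT replicate 2 (adjusted p = 0.0537).

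Lin28b did not pass the test. Its levels were 219, 211 and 225 CPM in WT and 219, 226 and 225 CPM in cKO, and the groups overlapped. Its log2 fold change of 0.03 (SE 0.0375, adjusted p = 0.543) came with a 95% interval from -0.06 to 0.12.

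Other genes of the LIN28 and let-7 pathway were read as a list of processing enzymes, RNA-binding partners and let-7 targets. Of 16 tested, 5 rose and 2 fell, or 31.2% and 12.5%, beside 20.7% and 15.8% of all mouse genes tested. The median log2 fold change was 0.02. Mycn, a MYC family target of let-7, rose from 9.56 ± 1.37 to 30.6 ± 2.79 CPM (SD of 3 libraries each; log2 difference 1.68, SE 0.124, adjusted p = 6.79e-05), and the RNA-binding gene Igf2bp2 rose by 0.49 (SE 0.0545, adjusted p = 0.000506). Ago2, the core of the microRNA silencing complex, fell by 0.39 on the log2 scale (adjusted p = 0.000297). Lin28a, the paralogue of Lin28b, stood at 4.03 ± 0.342 and 4.18 ± 0.454 CPM (SD, n = 3 each). The number that fell depended on scaling: 4 rose and 4 fell with upper-quartile factors, 5 rose and 1 fell with total counts, and 2 rose and 3 fell by DESeq2. Leaving out 1 library gave 3 to 5 that rose and 1 to 4 that fell. Mir99ahg of this list entered the test only through the cKO libraries. With at least 10 counts in every library, 15 were tested, of which 4 rose and 1 fell.

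Per kilobase of exon, the order of levels changed between the mouse groups. In WT, Lin28b (24.1 CPM per kilobase) and Hmga2 (20.2) led, followed by Meis1 (3.08), Hlf (2.44), Hoxa9 (0.857), Hoxa7 (0.831), Hoxa5 (0.238), Mecom (0.152) and Hoxa10 (0.122). Libraries of Meis1 and Hlf overlapped, as did those of Hoxa9 and Hoxa7, and of Hoxa5, Mecom and Hoxa10 in turn. In cKO the order was Lin28b (24.6), Hmga2 (23.8), Hlf (7.52), Meis1 (6.24), Hoxa9 (2.27), Hoxa7 (1.36), Mecom (1.05), Hoxa5 (0.639) and Hoxa10 (0.292). There only Lin28b and Hmga2 overlapped, Hlf stood above Meis1, and Mecom stood above Hoxa5.

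Genes upstream and downstream of the HOXA axis were read from 2 further lists. Of 25 tested HOXA regulators (MLL complexes and their partners, and Polycomb subunits), 4 rose and 10 fell, with a median log2 fold change of -0.18. The shares were 16% higher and 40.0% lower, beside 20.7% and 15.8% of all mouse genes tested. With total-count scaling, 5 rose and 5 fell. Mllt3, a MLL partner also used as a stem cell marker, went from 90.3 ± 1.87 to 61.8 ± 1.88 CPM (SD of 3 libraries each; log2 difference -0.55, SE 0.0444, adjusted p = 0.000106). The elongation factor gene Aff4 rose by 0.37 (SE 0.0451, adjusted p = 0.000775), and the Polycomb gene Rnf2 rose by 0.28 (SE 0.0444, adjusted p = 0.00266).

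Of 20 reported targets of HOXA9 and MEIS1, all tested, 13 rose and 1 fell, with a median log2 fold change of 0.26. This is 65% higher and 5% lower, beside 20.7% and 15.8% of all mouse genes tested. The cyclin gene Ccnd1 rose from 19.7 ± 1.53 to 61.9 ± 0.735 CPM (SD of 3 libraries each; log2 difference 1.65, SE 0.0687, adjusted p = 5.31e-06). The stem cell factors Erg (1.01, SE 0.0644, adjusted p = 3.42e-05) and Etv6 (0.58, SE 0.0372, adjusted p = 3.62e-05) rose as well. Trib2, a pseudokinase gene, was the one that fell, by 1.11 (SE 0.0953, adjusted p = 0.000141). Over the alternative settings, 10 to 14 of the 20 rose and 1 fell.

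**Figure D3:**
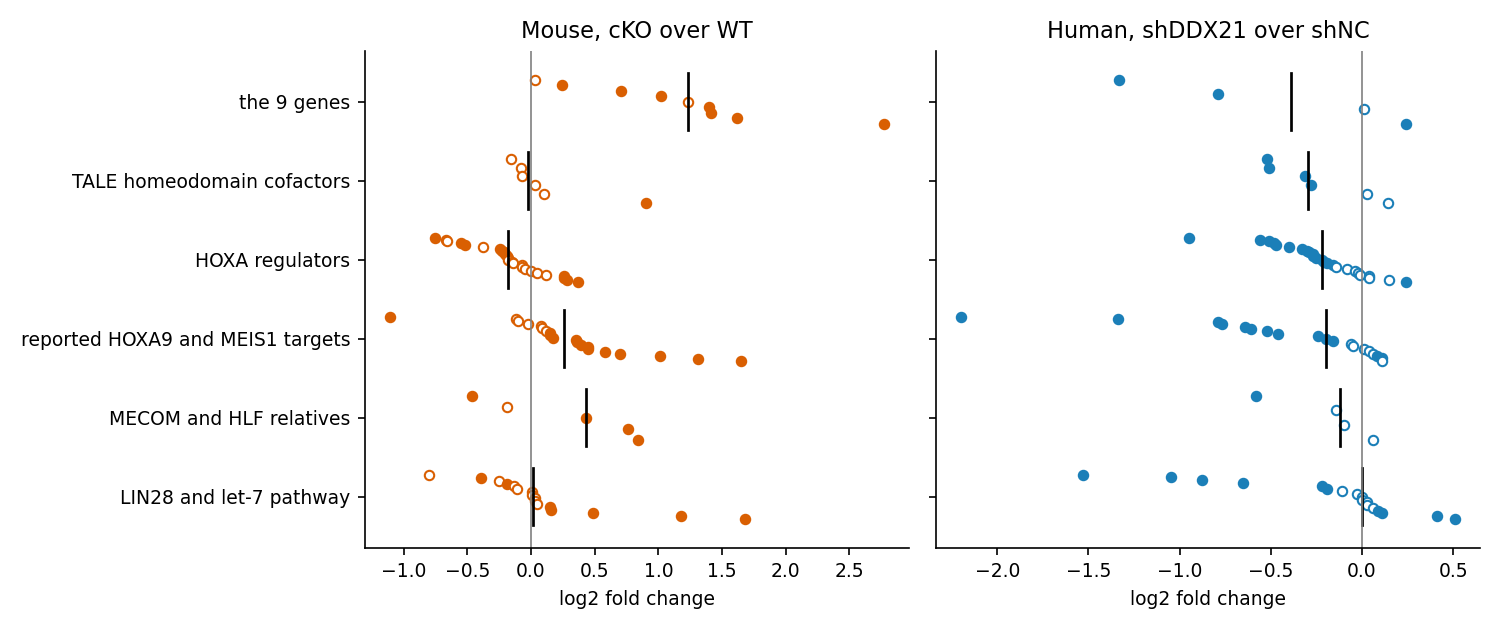
Log2 fold change of every tested gene in the 9-gene set (4 genes in the human panel) and 5 related lists, in the mouse (left) and human (right) experiment. Filled points were called at an adjusted p under 0.05 and black lines are list medians. Reported HOXA9 and MEIS1 targets lie mostly right of 0 in the mouse (median 0.26) and left of 0 in the human cells (median -0.20).

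Markers of stem cells and of other cells moved alongside. The marker counts here and in the next paragraph stand beside 20.7% of all mouse genes tested called higher and 15.8% lower. Summed stem cell markers (17 genes) ran from 922 to 945 CPM in WT and from 1047 to 1131 in cKO, and 8 of 15 tested rose while 2 fell, with Hoxb5 at 0 in WT. Cd34 (log2 fold change 0.69, SE 0.0429, adjusted p = 3.18e-05) and the stem cell receptor gene Slamf1 (1.99, SE 0.135, adjusted p = 4.56e-05) were among those that rose. Mllt3, described above, was among the 2 that fell. Procr entered the test only through the cKO libraries, and with at least 10 counts in every library 8 of 14 rose and 2 fell. Granulocyte and monocyte markers ran from 682 to 943 CPM in WT and from 338 to 583 in cKO, and 8 of 10 tested fell while 0 rose. The number that fell was 5 without WT replicate 1 or WT replicate 2, and 4 without cKO replicate 3. Ly6c2 reached the cutoff of the filter only in WT libraries, and Cebpe in 2 of 3 cKO libraries. With at least 10 counts in every library, 6 of 8 of these markers fell. Erythroid markers ran from 1890 to 1984 CPM in WT and from 1279 to 1396 in cKO, and 3 of 9 tested rose while 4 fell. Without any one of 4 libraries (WT replicates 1 and 2, cKO replicates 2 and 3), 3 rose and 2 fell.

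Cells that a Kit gate could carry over were also read. Endothelial markers, of interest because endothelium also transcribes Mecom and Erg, ran from 79.8 to 100.2 CPM in WT and from 118 to 137 in cKO. Of 8 tested, 4 rose and 0 fell. Those that rose were Tek (log2 fold change 2.05, SE 0.0984, adjusted p = 1.02e-05), Pecam1 (0.43, SE 0.0541, adjusted p = 0.000889), Emcn (1.46, SE 0.214, adjusted p = 0.00182) and Cdh5 (1.34, SE 0.367, adjusted p = 0.0261). Cdh5 lost its call without WT replicate 2 or any one cKO library, with adjusted p from 0.0518 to 0.0617. It reached the cutoff of the filter in 2 of 3 WT libraries and in all 3 cKO libraries. With at least 10 counts in every library, 3 of 7 endothelial markers rose and 0 fell. In some settings 1 endothelial marker was called lower: without the filter, with the replicate block, and without WT replicate 3 or cKO replicate 1. Mean Tek was 8 CPM (SD 0.45, n = 3) without the deletion, against 33.1 CPM (SD 3.32, n = 3) with it, while Cldn5 and Sox17 were at 0 in both groups. Hepatoblast markers ran from 8.26 to 10.5 CPM in WT and from 41 to 44 in cKO, with 5 of 7 tested higher and none of the 12 at 0 throughout a group. Of these 7, 3 entered the test only through the cKO libraries, and with at least 10 counts in every library 2 of 4 were higher (median log2 fold change 0.53, beside 3.03 for the 7). Liver mesenchyme markers ran from 11 to 15.6 CPM and from 18.4 to 25 CPM, with 3 of 4 tested higher and Ngfr at 0 in both groups. Of these 4, 2 entered only through the cKO libraries, and with at least 10 counts in every library 1 of 2 was higher. The part of these shifts in the change of the 9 genes was not tested.

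In the human cells, 1 of the 4 analysed genes rose and 2 fell. Over all 20188 human genes tested, 52.7% were called, 25.3% higher and 27.4% lower. The median log2 fold change of the 4 genes was -0.39, beside 0.005 over all genes tested. MEIS1 libraries did not overlap and were higher with shDDX21, as for 27.9% of all genes tested, and those of MECOM and HMGA2 did not overlap and were lower, as for 29.5%.

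MEIS1 (ENSG00000143995; chromosome 2, 66433452 to 66573869, positions as in the deposited table, hg38 in the submitters' processing notes) was higher with shDDX21 by a small amount. Its levels were 186, 182 and 188 CPM in shNC and 222, 222 and 212 CPM in shDDX21. The groups were tight and did not overlap (1.18-fold; log2 fold change 0.24, SE 0.0279, adjusted p = 1.58e-11). The antisense gene MEIS1-AS2, with 723 counts in all, overlaps 13.4% of the MEIS1 exon bases.

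MECOM (chromosome 3, 169083499 to 169663775) fell. Its counts were 231, 164 and 196 in the shNC libraries, against 119, 109 and 126 in the shDDX21 libraries, or 12.2, 10.7 and 11 CPM against 6.11, 6.46 and 7.18 CPM. Every shDDX21 library was below every shNC library, and the level was 1.73-fold lower (log2 fold change -0.79, SE 0.112, adjusted p = 6.52e-09).

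HMGA2 (chromosome 12, 65824460 to 65966291) fell most of the 4. It stood at 11.1, 10.9 and 11 CPM in shNC and at 5.13, 4.51 and 3.42 CPM in shDDX21. The shNC libraries were nearly identical, and the shDDX21 libraries were more spread but all lower (2.51-fold lower; log2 fold change -1.33, SE 0.128, adjusted p = 1.05e-14).

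LIN28B (chromosome 6, 104936616 to 105083332), abundant in both groups, did not pass the test. Levels were 155, 149.8 and 158 CPM in shNC and 155, 160.0 and 152 CPM in shDDX21, and they overlapped. Its log2 fold change of 0.01 (SE 0.0304, adjusted p = 0.789) came with a 95% interval from -0.05 to 0.07. With upper-quartile scaling it was 0.0803 and passed the test (adjusted p = 0.0215), and with total counts it was -0.0187.

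Per kilobase of exon, the human levels in shNC were 26 CPM for LIN28B, 17 for MEIS1, 1.22 for MECOM and 0.728 for HMGA2. In shDDX21 they were 26.2, 20.0, 0.711 and 0.289 in the same order, and no 2 neighbours in that order overlapped in either group. By this measure LIN28B stood first among the 9 genes read in the mouse and the 4 read in the human cells. HMGA2 was second of the 9 in the mouse LK cells and last of the 4 in the human cells. Without division by exon length, mean shNC levels were 185 CPM for MEIS1, 154 for LIN28B, 11.3 for MECOM and 11 for HMGA2.

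The lists around these genes mostly held lower values in the human cells. Their counts stand beside 25.3% of all human genes tested called higher and 27.4% lower. Of 6 tested TALE homeodomain genes, 0 rose and 4 fell, with a median log2 fold change of -0.29. PKNOX1 (-0.52, SE 0.0743, adjusted p = 7.5e-09) and MEIS2 (-0.31, SE 0.0534, adjusted p = 1.03e-06) were among those that fell. With upper-quartile scaling 1 of the 6 rose and 4 fell.

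Of 25 tested HOXA regulators, 1 rose and 16 fell, with a median log2 fold change of -0.22. In percent, 4% rose and 64% fell, beside 25.3% and 27.4% of all human genes tested. ASH2L, a core subunit of MLL complexes, halved from 144 ± 0.185 to 74.6 ± 2.65 CPM (SD of 3 libraries each; log2 difference -0.95, SE 0.0347, adjusted p = 1.45e-36). PSIP1, which tethers MLL to chromatin (-0.51, SE 0.0314, adjusted p = 5.78e-24), and the Polycomb gene SUZ12 (-0.48, SE 0.0329, adjusted p = 2.05e-21) fell as well. With upper-quartile scaling 3 rose and 16 fell.

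Of 19 tested HOXA9 and MEIS1 targets, 2 rose and 11 fell, with a median log2 fold change of -0.20. The shares were 10.5% and 57.9%, beside 25.3% and 27.4% of all human genes tested. The kinase gene PIM1 went from 567 ± 10.3 to 327 ± 0.145 CPM (SD of 3 libraries each; log2 difference -0.79, SE 0.0226, adjusted p = 6.05e-43). LMO2, a stem cell transcription cofactor (-0.77, SE 0.0288, adjusted p = 5.77e-36), and the cell cycle kinase gene CDK6 (-0.64, SE 0.0284, adjusted p = 1.95e-31) also fell. The number that rose was 4 with upper-quartile scaling, and 1 with total counts, by DESeq2, without the filter on low counts and without any one of 4 libraries (shNC replicates 1 and 2, shDDX21 replicates 2 and 3).

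Among 17 tested genes of the LIN28 and let-7 pathway, 4 rose and 6 fell, with a median log2 fold change of 0.00. These shares of 23.5% and 35.3% stand near the 25.3% and 27.4% of all human genes tested. DICER1, which cuts microRNA precursors, went from 376 ± 8.58 to 181 ± 1.06 CPM (SD of 3 libraries each; log2 difference -1.05, SE 0.0257, adjusted p = 6.5e-47). ARID3A, a let-7 target (0.51, SE 0.0226, adjusted p = 1.21e-31), and LIN28A (0.41, SE 0.0287, adjusted p = 9.8e-21) rose. LIN28A stood at 157 ± 4.46 CPM in shNC and 209 ± 3 CPM in shDDX21 (SD, n = 3 each). With upper-quartile scaling 7 rose and 6 fell. With total counts, by DESeq2 and without shDDX21 replicate 2, 2 rose and 6 fell, and without shNC replicate 3, 2 rose and 7 fell. Of 4 tested relatives of MECOM and HLF, 0 rose and 1 fell, with a median log2 fold change of -0.12.

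Among 7 tested HOXB genes, 1 rose and 1 fell, or 14.3% each, beside 25.3% and 27.4% of all human genes tested. HOXB3 rose from 13.7 ± 1.04 to 19.5 ± 0.912 CPM (SD of 3 libraries each; log2 difference 0.50, SE 0.0833, adjusted p = 3.04e-07), and HOXB9 fell from 7.71 ± 0.853 to 4.54 ± 0.725 CPM (SD of 3 libraries each; log2 difference -0.76, SE 0.139, adjusted p = 2.64e-06). HOXB4, often used to expand stem cells, stood at -0.19 (SE 0.0917, adjusted p = 0.0749). With total counts, and without shDDX21 replicate 2, 1 rose and 2 fell.

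Markers of other cell types also differed between the human groups. Over all human genes tested, 25.3% were called higher and 27.4% lower. Summed stem cell markers ran from 2145 to 2188 CPM in shNC and from 1868 to 1872 in shDDX21, and 7 of 16 tested rose while 7 fell. SLAMF1 of this list passed the filter only through the shDDX21 libraries (2 of 3 shNC libraries reached the cutoff). With at least 10 counts in every library, 7 of 15 stem cell markers rose and 7 fell. Endothelial markers, which blood cells newly formed from haemogenic endothelium can carry, ran from 1855 to 1904 CPM and from 1544 to 1566, with 3 of 11 tested higher and 5 lower. Granulocyte and monocyte markers ran from 674 to 692 CPM and from 528 to 538, with 1 of 8 higher and 7 lower. Of these, S100A8 reached the cutoff of the filter only in shNC libraries. With at least 10 counts in every library, 1 of 7 was higher and 6 were lower. Erythroid markers ran from 1776 to 1795 CPM and from 1446 to 1459, with 4 of 8 higher and 2 lower. Mesenchyme markers ran from 492 to 495 CPM and from 617 to 623, with 3 of 7 tested higher and 4 lower (median log2 fold change -0.31). The 3 matched hepatoblast markers (KRT8, KRT18 and HNF4A) ran from 64.5 to 69.1 and from 81.7 to 88.4, with 2 higher and 1 lower. HNF4A reached the cutoff of the filter in 3 of 3 shNC and 2 of 3 shDDX21 libraries. With at least 10 counts in every library, 2 hepatoblast markers were tested, with 2 higher and 0 lower. No matched marker of these lists was at 0 throughout a group. Human symbols came from the deposited normalized table, where the lowest total count was 27. A marker silent in all human libraries could therefore not be matched. The 3 matched pluripotency genes, LIN28A among them, ran from 241 to 250.1 CPM and from 282 to 294, with 1 higher and 1 lower. The part of these shifts in the change of the 4 genes was not tested.

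The mouse and human changes of the 4 genes were compared directly as an interaction term (edgeR quasi-likelihood test, 12 libraries). Of 10331 genes matched by symbol, 56.2% differed, 35.8% with the mouse log2 fold change above the human one. MECOM differed by 3.56 (SE 0.207, 95% interval 3.10 to 4.01, adjusted p = 6.6e-08), since it rose in the mouse and fell in the human cells. HMGA2 likewise went in opposite directions and differed by 1.56 (SE 0.134, adjusted p = 1.49e-06). MEIS1 rose in both and differed by 0.78 (SE 0.082, adjusted p = 8.26e-06). For LIN28B the difference was 0.02 (SE 0.0489, 95% interval -0.09 to 0.13, adjusted p = 0.756). Species, tissue, stage and the means of lowering DDX21 all change together between the experiments and cannot be told apart.

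**Figure D4:**
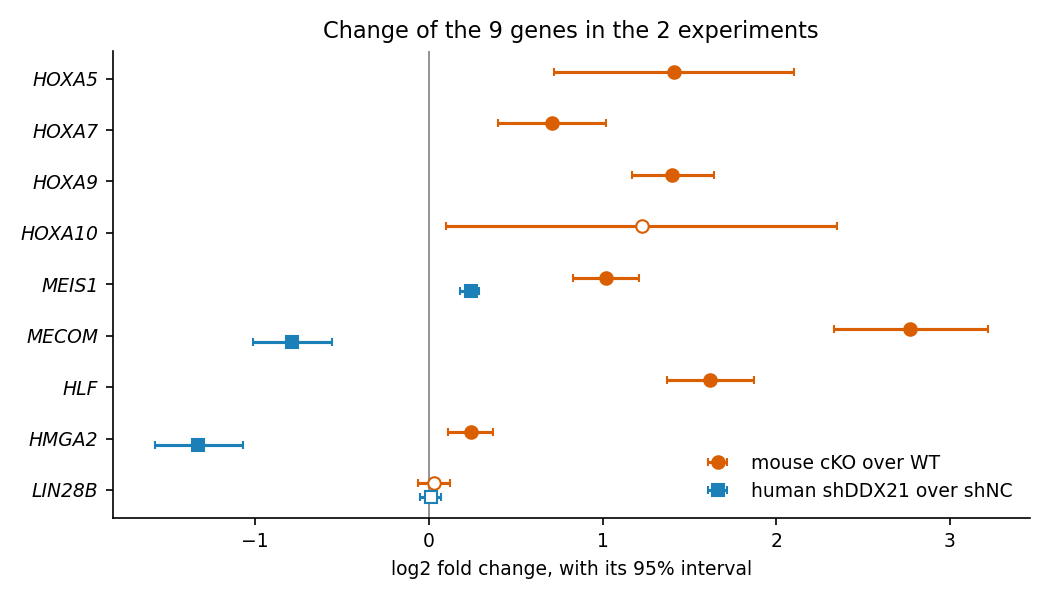
Log2 fold change of each gene with its 95% interval, for cKO over WT in mouse LK cells (orange circles) and shDDX21 over shNC in human cells (blue squares). Filled symbols were called at an adjusted p under 0.05, and genes not analysed in human cells have no square. MECOM and HMGA2 lie on opposite sides of 0 (2.77 and -0.79, 0.24 and -1.33), and both LIN28B symbols sit on 0.

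For the 3 genes called in both experiments, the 2 genes most alike over all 12 libraries were sought among 8111 matched genes with a mean of at least 5 CPM in both experiments. Likeness was the root mean square difference of log2(CPM + 0.5) after centring within each experiment, and smaller values mean more alike. MEIS1 was most like NBEA (0.0599; log2 fold changes 1.01 in mouse and 0.34 in human) and TTC7B (0.0649; 1.01 and 0.31). MECOM was most like the gap junction gene GJA1 (0.183; 2.37 and -1.03) and the actin-binding gene CALD1 (0.207; 3.24 and -0.75). HMGA2 was most like EHD4 (0.117; 0.24 and -0.97) and PIGK (0.118; 0.29 and -1.32). These rankings are a description over libraries that share 2 conditions and carry no test.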

How the data were processed

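Polyadenylated RNA of 12 libraries was analysed. The deposited raw tables give a read count and an exon length for each gene. Per the submitters' processing notes, STAR, featureCounts and DESeq2 were used with builds mm10 and hg38, and their versions and strand setting are not given in the sources used here. The second deposited table of each experiment gives normalized values (unit: signal, checked to equal the count over 1 constant per library) and log2 of each value over the control mean. It supplied human symbols and 1 alternative. Mouse symbols and positions came from GENCODE M21, 3′ UTR sites from its transcripts, and other sequences from RefSeq.

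Counts were tested with edgeR 4.0.16 (R 4.3.3) in each experiment: filterByExpr, TMM factors, glmQLFit and glmQLFTest, two-sided, Benjamini-Hochberg over all genes tested. The SE is the size of the log2 fold change divided by the root of the F statistic, and 95% intervals use the degrees of freedom of that test. Alternatives were RLE, upper-quartile and no factors, 2 other filters, DESeq2 1.42.0, the replicate block, the log2 ratio of the deposited values (no test), and leaving out each library. The code was tested on simulated counts. With 3 libraries against 3, an exact permutation test cannot give a p below 0.1. The labels name no molecular identifiers, so counts are of reads, not molecules.

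The 9 genes and the gene lists were chosen with earlier results of these data known. Each list is described by its counts, its median and up to 3 tested members with the smallest p, named with a few others on which a sentence turns (a few named by this rule are not reported here). The most alike genes follow a fixed rule (2 per gene called in both experiments).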

Additional observations from a re-analysis of the deposited data

Results flagged for a closer look

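The change after loss of DDX21 differed between the mouse and human experiments for 3 of the 4 genes analysed in both, by the interaction test. The mouse minus human log2 fold change was 3.56 for MECOM, with higher levels in 3 of 3 cKO libraries and lower levels in 3 of 3 shDDX21 libraries than in any control. It was 1.56 for HMGA2, with the same pattern of directions. For MEIS1 it was 0.78, with higher levels than any control in 3 of 3 libraries of both experiments. All 3 differences held their direction and call in the 16 alternative settings run. These values stand beside a background in which 56.2% of matched genes differed.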

How the results depend on the processing

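Call and direction held in every alternative with a test (12 to 16 per result), and direction in the deposited values, for Hoxa5, Hoxa7, Hoxa9, Meis1, Mecom and Hlf in the mouse, MEIS1, MECOM and HMGA2 in the human cells, and the 3 called differences between the experiments. Mouse genes called higher among the 9 numbered 6 to 8. Hmga2 lost its call without WT replicate 1 (0.2241) or 2 (0.2344), with fewer samples fitted. Hoxa10 gained one under the replicate block (1.278, adjusted p = 0.0343). Its adjusted p ran from 0.0264 to 0.226 over all alternatives. With upper-quartile factors 2 human genes of the 4 were called higher. LIN28B reversed in sign around 0: in the human cells -0.0187 with total counts, -0.01225 without shNC replicate 2 and -0.009683 without shDDX21 replicate 2 (up to 0.03072 without 1 library). Its difference between experiments was -0.0006863 with RLE factors, -0.0245 with upper-quartile factors, -0.008809 without WT replicate 2 and -0.001047 without shDDX21 replicate 3 (up to 0.04506 without 1 library). The cause was not tested.

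Mouse genes called lower ran from 1368 to 2708 without 1 library (1498 without WT replicate 1, 1480 without WT replicate 2, 1368 without cKO replicate 3), beside 2360 with all. Scaling moved the split of calls: mouse 3083 higher and 2360 lower became 3565 and 1612 with total counts, and human 5105 and 5526 became 6255 and 4635 with upper-quartile factors. Replicate numbers did not pair the samples: same-numbered libraries correlated at 0.449, -0.263 and 0.0389 in the mouse and between -0.0178 and 0.00206 in the human experiment. Differently numbered mouse libraries correlated as strongly, at 0.54 for WT replicate 3 with cKO replicate 2 and -0.563 for WT replicate 3 with cKO replicate 1. Mouse libraries of the 2 groups thus shared variation that replicate numbers do not follow and the replicate block does not model. Its source was not tested. With the replicate block, 2810 mouse genes were higher and 2356 lower, and 5082 and 5519 in the human experiment. Among the 9 genes, the block changed no call other than that of Hoxa10. Calls lost under it elsewhere included Hoxa6 (adjusted p = 0.0551) and Nfil3 (0.051), and the mouse LIN28 and let-7 list went from 5 higher and 2 lower to 3 and 4. Depth limits Hoxa5 and Hoxa10, with 5 to 33 counts per library.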
